A study of Mus musculus with 5 samples.

Results

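Granulocyte-monocyte progenitors were taken from the bone marrow of 5 mice as the cells that carried at least 5 unique molecular identifiers (UMIs, each counted once per captured RNA molecule) of Elane and Ms4a3 together and at least 1 UMI of Cdk6. A barcode counted as a cell when it had at least 500 UMIs with no more than 10% of them from mitochondrial genes. The rule found 821 members among 29679 cells. The members were thus chosen by the measured UMIs of these 3 genes, so their levels are given as a description and support nothing.

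The study asked how the marrow around a B cell leukemia changes while the leukemia grows. Every mouse was a C57BL/6J animal of 8 weeks that was not irradiated and received 1000 BCR-ABL1+ pre-B acute lymphoblastic leukemia cells by tail vein, and this includes the mouse of day 0, which was killed right after the transplantation. The other mice were killed at days 3, 6, 9 and 12, with 1 mouse per day. Flushed marrow and collagenase-digested bone were pooled, red cells were lysed, and the cells were frozen and shipped before droplet-based sequencing. Day, animal and library are therefore the same thing here and cannot be told apart, and no test was made between days.

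In blood formation, granulocyte-monocyte progenitors stand between multipotent cells and the separate neutrophil and monocyte lineages. Their hallmark is the making of primary granules, the vesicles filled first in a maturing granulocyte, whose contents include neutrophil elastase (Elane), proteinase 3 (Prtn3), cathepsin G (Ctsg) and myeloperoxidase (Mpo). Ms4a3 encodes a membrane protein of this stage and Cdk6 a cyclin-dependent kinase of early G1. Genes of the later granules, such as Ltf, Camp, Ngp and Lcn2, are normally switched on after the progenitor stage, and the transcription factor Irf8 is known for monocyte fate while Cebpe is known for granulocyte maturation.

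Elane and Prtn3 lie next to each other on chromosome 10 of the mouse genome (build GRCm38), Elane at 79886247 to 79888215 and Prtn3 at 79874476 to 79883174, both on the plus strand. Mpo lies on chromosome 11 at 87793581 to 87804413 on the plus strand, and Ctsg on chromosome 14 at 56099881 to 56102574 on the minus strand. All 4 are protein-coding genes, and these spans are those of GENCODE, while the starts used next are those of RefSeq, which can lie elsewhere in a gene. The 250 bases before their starts are shown because these genes rose and fell together from cell to cell in the data that follow. They are RefSeq sequences of build GRCm38.p6, written 5′ to 3′ on the strand of the gene, for chr10:79886062-79886311 (Elane), chr10:79879417-79879666 (Prtn3), chr11:87793534-87793783 (Mpo) and chr14:56102575-56102824 (Ctsg, minus strand). Capitals mark matches to GAGGAA, a core bound by the myeloid factor PU.1, and to TGTGGT, a core bound by RUNX factors (ACCACA on the other strand).
Elane: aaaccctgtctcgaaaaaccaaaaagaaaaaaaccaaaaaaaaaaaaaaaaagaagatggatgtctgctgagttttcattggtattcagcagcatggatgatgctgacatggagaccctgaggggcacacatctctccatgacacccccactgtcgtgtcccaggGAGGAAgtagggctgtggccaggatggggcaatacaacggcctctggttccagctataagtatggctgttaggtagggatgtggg
Prtn3: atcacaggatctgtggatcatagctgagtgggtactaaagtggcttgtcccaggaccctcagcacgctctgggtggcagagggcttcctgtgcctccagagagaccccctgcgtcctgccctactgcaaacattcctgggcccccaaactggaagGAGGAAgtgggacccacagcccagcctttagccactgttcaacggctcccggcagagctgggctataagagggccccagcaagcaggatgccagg
Mpo: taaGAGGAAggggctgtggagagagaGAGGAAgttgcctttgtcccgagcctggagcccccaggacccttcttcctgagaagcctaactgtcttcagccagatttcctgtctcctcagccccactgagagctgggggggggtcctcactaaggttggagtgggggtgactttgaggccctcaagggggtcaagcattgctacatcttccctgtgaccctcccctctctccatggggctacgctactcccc
Ctsg: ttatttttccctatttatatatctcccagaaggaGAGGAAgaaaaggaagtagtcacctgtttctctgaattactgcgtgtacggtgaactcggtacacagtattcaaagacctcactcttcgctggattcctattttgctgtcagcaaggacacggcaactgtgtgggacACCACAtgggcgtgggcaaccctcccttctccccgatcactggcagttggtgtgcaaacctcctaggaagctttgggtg

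Both strands were searched in the 250 bases before the starts of 32536 mouse promoters. GAGGAA was found 85 bases before the start of Elane and 95 bases before that of Prtn3. Mpo held it at 247 and at 224 bases before its start, and Ctsg at 216 bases. GAGGAA was in 23.4% of all promoters, so a match is common. TGTGGT was in 14.0% of all promoters and, among the 4 genes shown, in that of Ctsg at 79 bases before the start. TTGCNNAA, the letters of a C/EBP site, were in 9.57% of all promoters and in none of these 4 windows, nor in those of Ms4a3 and Cdk6. A match is a description of the letters, not of a binding site.

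Members made up 2.64% of cells at day 0 (165 of 6259, exact 95% binomial interval 2.25% to 3.06%), 2.67% at day 3 (130 of 4870, 2.23% to 3.16%), 2.57% at day 6 (155 of 6041, 2.18% to 3.00%), 3.21% at day 9 (223 of 6944, 2.81% to 3.65%) and 2.66% at day 12 (148 of 5565, 2.25% to 3.12%). The share was highest at day 9, and its interval overlapped those of the other days. Intervals here and below cover counting error only, not the difference between mice. The libraries held 33425695 to 43554233 UMIs. The median depth of a member was 17600 UMIs at day 0, 17722 at day 3, 16360 at day 6, 15239 at day 9 and 15757.5 at day 12. Of 29679 cells, 494 barcodes occurred in more than 1 library, and 26 members carried such a barcode. At the edge of the rule, 11 to 19 members a mouse had 5 or 6 UMIs of Elane and Ms4a3, while 18 to 56 cells with Cdk6 had 3 or 4 and stayed outside. A further 136 to 214 cells a mouse met the Elane and Ms4a3 limit but had no Cdk6 UMI.

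The label held for a part of the members only. In 332 of the 821 members (40.4%, interval 37.1% to 43.9%) the later granule genes Ltf, Camp and Ngp together reached at least 100 UMIs per 10000 UMIs of the cell, with a median of 961, against a median of 30.1 in the other 489. Only 44 members lay between 50 and 200, so the split was not set by the exact limit. The Camp-high members numbered 70, 53, 67, 80 and 62 from day 0 to day 12, which is 42.4%, 40.8%, 43.2%, 35.9% and 41.9% of the members of each mouse. They had fewer detected genes, with a median of 2389 against 3368 in the others. Among these 489, another 75 (2, 15, 33, 25 and 0 by day) carried at least 10 UMIs of marker genes of B cells, of T and NK cells, or of basophils, mast cells and eosinophils. Leaving both out gave 414 core members, with 93, 62, 55, 118 and 86 in the 5 mice, or 1.49%, 1.27%, 0.910%, 1.70% and 1.55% of all cells. This split was made after the values had been seen, so counts of genes in the core are given beside those of all members and not as a test of their own. The limit of 10 marker UMIs is a raw count that rises with depth. B cell markers reached it in 2, 8, 22, 14 and 0 members by day. The same markers stood at 0.997, 1.51, 2.47, 1.65 and 0.429 UMIs per 10000 in neutrophil precursors. The part of free RNA and of depth in these members, and so in the core shares by day, was not tested.

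**Figure D1:**
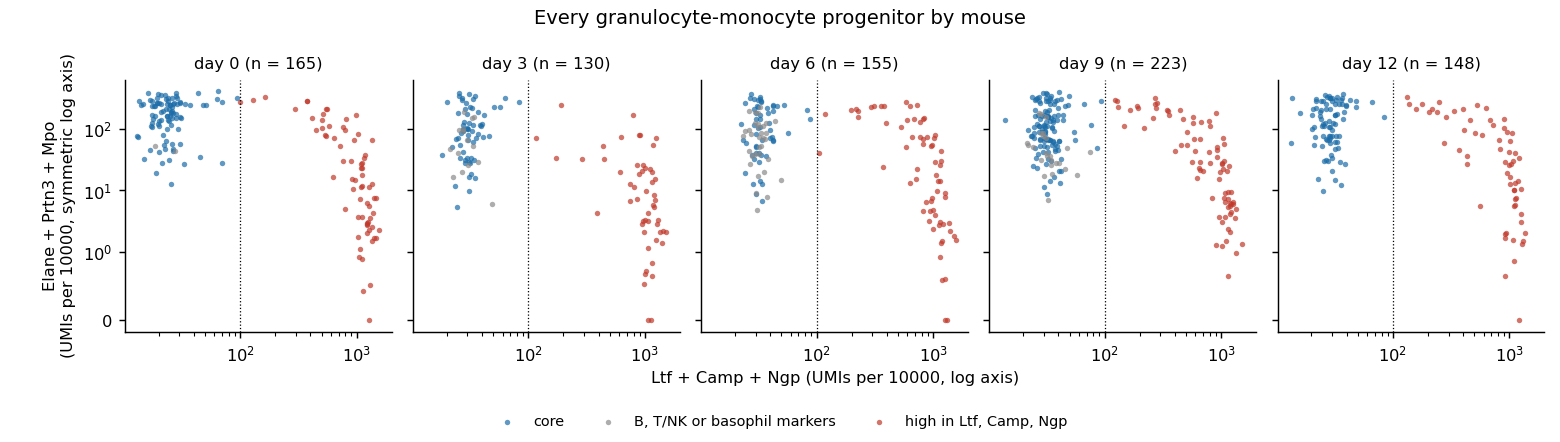
Every member as a point, with 1 panel per mouse. The horizontal axis is the sum of Ltf, Camp and Ngp and the vertical axis the sum of Elane, Prtn3 and Mpo, both in UMIs per 10000 UMIs of the cell on log axes (the vertical one linear near 0). The dotted line is the limit of 100, blue points are the 414 core members, red the 332 Camp-high members and grey the 75 with markers of other lineages. Within the red points Elane, Prtn3 and Mpo fall as Ltf, Camp and Ngp rise.

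The granule genes set the core and the Camp-high members apart in every mouse. Camp, which encodes a cathelicidin peptide, stood at 616, 597, 573, 542 and 564 UMIs per 10000 in the Camp-high members from day 0 to day 12 and at 15.4, 16.6, 18.3, 18.3 and 16.4 in the core, a difference that the split itself fixes. The level in the core lay below the 40.1 to 73.9 found in B cells (cells with at least 3 UMIs of Cd79a), which do not make Camp, and after thinning to 5000 UMIs every B cell had a Camp UMI. The B cells had fewer UMIs than the core members, and the part of free RNA in the Camp of the core was not tested. The genes not used by the split behaved differently. Mpo, the enzyme that makes hypochlorous acid in the granule, was at 42.7, 34.3, 35.2, 39.1 and 38.0 in the core and at 8.65, 3.396, 9.28, 11.5 and 9.43 in the Camp-high members. Cebpe was at 1.15, 1.01, 1.23, 1.19 and 0.933 in the core and at 4.90, 5.52, 6.00, 5.18 and 3.53 in the Camp-high members. In every mouse Mpo was higher and Cebpe lower in the core, and how many of all genes differ in this way was not counted. Fcnb, a ficolin of maturing neutrophils, lay between 1.02 and 1.77 in the core and between 11.7 and 14.4 in the Camp-high members. Cd34, a surface protein of immature blood cells, lay between 0.494 and 0.876 in the core and between 0.00938 and 0.0661 in the Camp-high members.

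Sums over the lists show the same split. The 16 growth genes, which serve ribosome making and its control, summed to 45.0 to 57.1 UMIs per 10000 in the core and to 9.29 to 12.8 in the Camp-high members. The 14 genes for folding secreted proteins summed to 39.7 to 49.0 in the core and to 12.9 to 14.4 in the Camp-high members. The 23 genes of G2 and M phase ran the other way, with 28.5 to 39.5 in the core and 53.4 to 62.2 in the Camp-high members. Each of these lists had the same direction in every mouse. The 22 S phase genes summed to 15.6, 19.4, 18.6, 17.02 and 18.9 in the core from day 0 to day 12. They summed to 12.3, 16.8, 13.1, 16.4 and 15.0 in the Camp-high members. As a share of all UMIs the core was higher in each mouse, although the ranges overlapped. The 12 later granule genes took 941 to 1122 UMIs per 10000 in the Camp-high members and 39.6 to 51.4 in the core. The 6 mature neutrophil markers took 2361 to 3195 and 184 to 272. No scaling for this was made, so the direction of the S phase genes over the remaining RNA was not tested.

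The core was formed by leaving out members with markers of B cells, of T and NK cells or of basophils, mast cells and eosinophils, so its low sums for these lists are fixed by that choice. The 7 B cell markers summed to 1.26 to 2.70 UMIs per 10000, against 60.9 to 134.8 in B cells. The 8 T and NK cell markers summed to 0.112 to 0.275, the 5 macrophage markers to 0.336 to 0.464 and the 6 stromal and endothelial markers to 0.0131 to 0.134. Of the 7 erythroid markers 2 were at 0 in all mice, and the sum ran from 0.00657 at day 12 to 0.866 at day 9. The 6 mature neutrophil markers summed to 184 to 272, against 2361 to 3195 in the Camp-high members and 263 to 503 in B cells.

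None of the 7 primary granule genes measured in the core was 2-fold lower or higher at day 3 than at day 0. Only 3.67% of all genes were, so this count says little about the list. The median log2 ratio of these genes was -0.65. It was -0.28, -0.35 and -0.16 at days 6, 9 and 12. Ctsc, which activates the granule proteases, stood at 0.30 at day 3 (interval 0.01 to 0.60) and at -1.10 at day 9 (interval -1.44 to -0.76). That was the 1 value of the list past 2-fold, on a day when 3.98% of all genes were. Elane, a gene of the rule, was at 94.5 UMIs per 10000 in the core at day 0, 54.7 at day 3, 69.2 at day 6, 61.8 at day 9 and 73.5 at day 12. Prtn3 was at 52.7, 38.5, 44.4, 41.6 and 43.3 on the same days, and Ctsg at 34.9, 21.9, 23.6, 24.6 and 34.2. The day 0 mouse was the highest for all 3, and the day 3 mouse the lowest, with day 12 close to day 0 for Ctsg. Ms4a3 was at 11.3, 7.25, 10.0, 9.04 and 11.4, and Cdk6 stayed between 2.002 and 2.18. In the Camp-high members Elane was at 37.3, 14.2, 34.5, 41.5 and 42.5, with the day 3 mouse again the lowest. Elane did not pass a factor of 2 against day 0 in the core, where its log2 ratio was -0.79 at day 3 (exact interval -0.83 to -0.75), -0.45 at day 6, -0.61 at day 9 and -0.36 at day 12. After thinning to 5000 UMIs a cell, an Elane UMI was found in 98.3% to 100% of core members and in 64.2% to 83.6% of Camp-high members, against 12.4% to 29.2% of B cells, where it is background. B cells had median depths of 1763 to 3544 UMIs, so most of them were left out by the thinning.

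**Figure D2:**
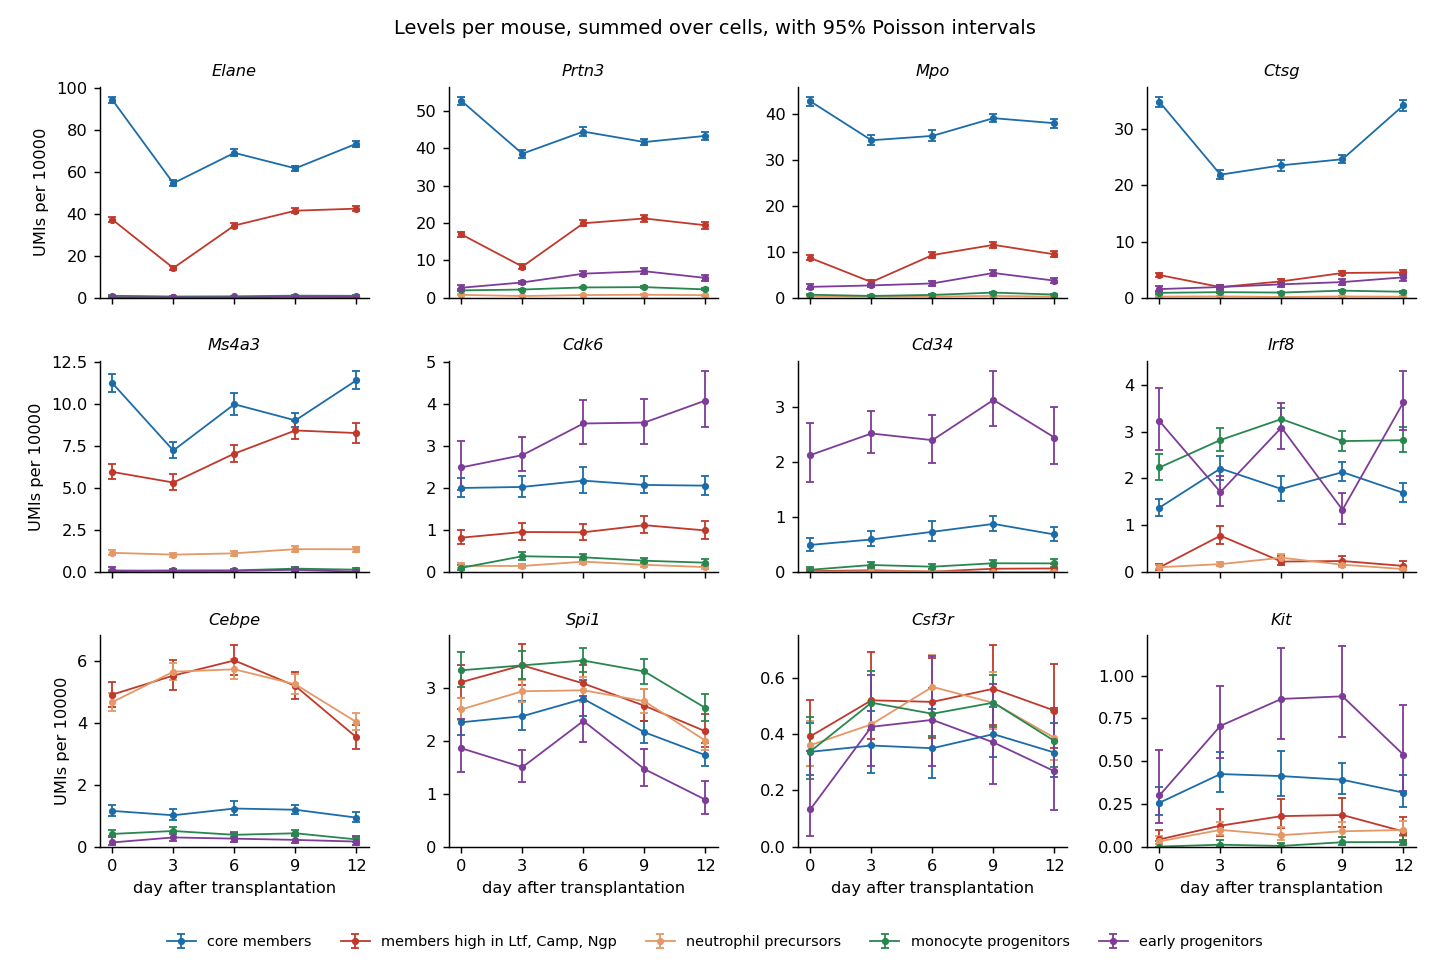
Level of 12 genes in UMIs per 10000 (vertical axes, linear from 0) by day after transplantation. Points are sums over the cells of a class in 1 mouse and bars are exact 95% Poisson intervals. Core members (blue) stand above every other class for Elane, Prtn3, Mpo and Ctsg, and Camp-high members (red) lie close to the neutrophil precursors for Cebpe.

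Within the core the granule genes went together from cell to cell, and monocyte genes went with Irf8. Spearman's rho across the 55 to 118 core members of a mouse, a description over cells that share a library, was 0.81 to 0.90 for Elane and Prtn3, 0.70 to 0.83 for Elane and Mpo, 0.65 to 0.77 for Mpo and Ctsg and 0.58 to 0.72 for Elane and Cebpe. Irf8 ran the other way, with a rho of -0.74 to -0.43 against Elane and -0.66 to -0.48 against Cebpe, and of 0.69 to 0.78 with F13a1, a coagulation factor subunit made by monocytes. Cd34 ran against Elane, with a rho of -0.44 to -0.29. Elane is a gene of the rule, so its pairs are a description and support nothing. For pairs without a rule gene, rho was 0.77 to 0.84 for Mpo and Prtn3 and -0.76 to -0.49 for Mpo and Irf8. It was -0.71 to -0.55 for Mpo and F13a1, but only -0.22 to 0.02 for Cd34 and Mpo. After thinning, 160 of 413 core members had an Irf8 UMI and 141 a Cebpe UMI, and 20 had both. F13a1 was found in 159, of which 113 also had Irf8 and 24 also had Cebpe.

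The core members with an Irf8 UMI numbered 29, 31, 24, 50 and 26 from day 0 to day 12, and those without numbered 63, 31, 31, 68 and 60. Elane was at 41.2, 30.6, 26.4, 26.0 and 20 UMIs per 10000 with Irf8 and at 118.8, 81.2, 92.5, 86.0 and 99.8 without it. Cebpe was at 0.345, 0.387, 0.917, 0.440 and 0.0769 with Irf8 and at 1.75, 1.68, 2.26, 1.79 and 1.10 without. F13a1 was at 2.34, 4.26, 4.83, 4.24 and 3.15 with Irf8 and at 0.413, 0.903, 0.903, 0.912 and 0.467 without. Each mouse showed the same direction for these 3 genes, of which Elane is a gene of the rule. The correlations over the same cells already gave this direction. How many of all genes differ in this way was not counted. Ly6c2, a surface antigen of monocytes, lay between 25.4 and 42.0 with Irf8 and between 16.2 and 23.0 without. Cdk6 was at 1.66 to 2.25 with Irf8 and at 1.87 to 2.54 without, and these ranges overlapped.

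**Figure D3:**
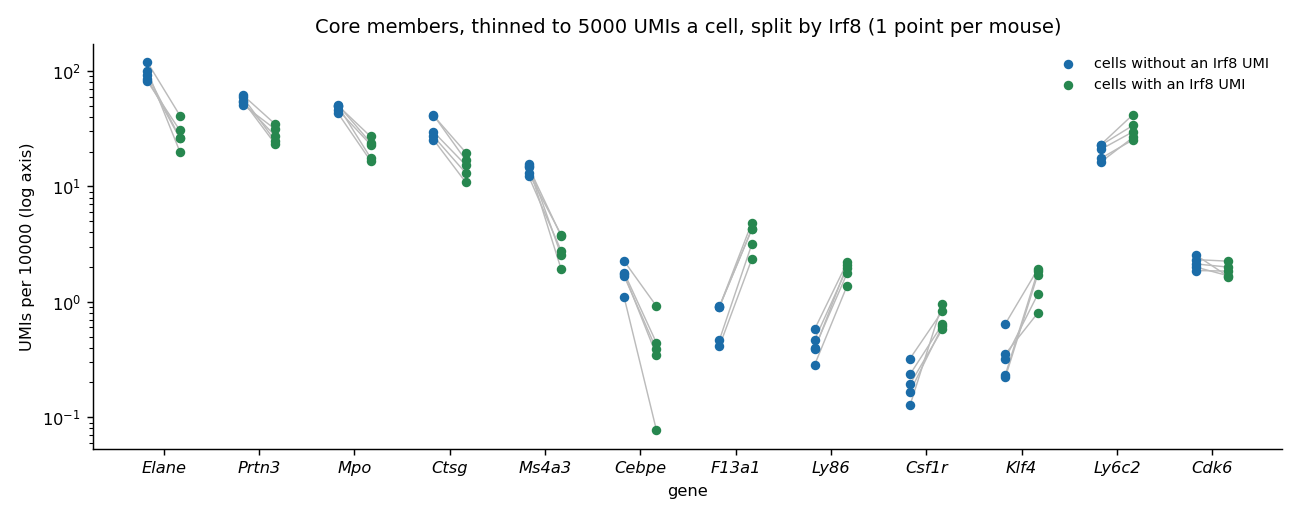
Core members thinned to 5000 UMIs a cell, split by whether the cell had an Irf8 UMI. The vertical axis is the level in UMIs per 10000 on a log scale, each point is 1 mouse, and grey lines join the 2 groups of a mouse. The 4 granule proteases and peroxidase genes, Ms4a3 and Cebpe are lower with Irf8, and F13a1, Ly86, Csf1r, Klf4 and Ly6c2 are higher.

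To place the members among their neighbours, they were compared within the same 5 mice with 3 classes set by rules of their own. Early progenitors (195 cells) had Cd34 and Cdk6 but at most 1 UMI of Elane and Ms4a3, neutrophil precursors (995 cells) had at least 5 UMIs of Fcnb, and monocyte progenitors (865 cells) had at least 3 UMIs of F13a1 and Csf1r and at least 1 of Mki67, the last 2 classes with at most 4 UMIs of Elane and Ms4a3. Counts were summed per mouse and class and tested by edgeR's quasi-likelihood test with the mouse as a block, leaving out genes that either rule used. All neighbours were chosen for low Elane, so the differences of granule genes that run with Elane come partly from the choice of cells. The same holds for monocyte genes that run with F13a1 and Csf1r against monocyte progenitors, and for later granule genes that run with Fcnb against neutrophil precursors. It also holds for early progenitor genes that run with Cd34 against early progenitors, which were chosen for Cd34. Members had to carry Cdk6 and the last 2 classes did not, so differences there of genes that run with Cdk6 come partly from the choice. Members had higher median depth (15239 to 17722 UMIs a mouse) than the neighbours (9259 to 14079), and its part in the results was tested only by thinning.

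Against early progenitors, members had more primary granule and protein folding RNA and less RNA of stem and early progenitor genes. Of 7808 genes tested, 1277 were higher and 1343 lower in members at an adjusted p under 0.05, or 33.6% of all, with 16.4% higher and 17.2% lower. All 7 primary granule genes tested were higher, with a median log2 fold change of 2.44 against -0.03 over all genes. Mpo rose by 3.17 ± 0.21 on the log2 scale, with higher values in 5 of 5 mice, and Ctsg by 3.12 ± 0.22. Here and below the value after ± is an approximate standard error. It is the size of the log2 fold change divided by the square root of the F statistic of the test. Genes with similar values of it can differ in adjusted p. Of 14 genes for folding and export of secreted proteins 13 were higher, with a median of 0.90. They included Hspa5, the chaperone of the endoplasmic reticulum (0.84 ± 0.09), and Pdia6, a disulfide isomerase (1.07 ± 0.11). In the core 12 of the 14 were higher, beside 903 of all 6117 genes tested there.

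Of 13 early progenitor genes tested 12 were lower and none was higher, with a median of -2.53. These neighbours were chosen to have Cd34, so that count is fixed in part by the choice. Flt3, a cytokine receptor of multipotent cells, was lower by 4.35 ± 0.20, and Meis1, a homeobox factor, by 3.55 ± 0.23. Dntt, the lymphoid DNA polymerase, was lower by 6.28 ± 0.20 and is the largest decrease named by the rule for genes. Kit, the stem cell factor receptor, was lower by 1.09 ± 0.16. Myb, a factor of immature cells, stood at -0.11 ± 0.11 (edgeR adjusted p = 0.51). Among 9 myeloid factors 5 were higher, led by Cebpe (3.74 ± 0.15 in all members and 2.31 in the core), with Cebpb at 1.57 ± 0.23, Spi1, which encodes PU.1, at 0.89 ± 0.10 and Cebpa at 0.64 ± 0.20. Runx1 was lower at -0.51 ± 0.16, and Irf8 at -0.65 ± 0.38 did not pass (edgeR adjusted p = 0.29).

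The later granule genes show how far the Camp-high members carry this comparison. Of 12 tested 10 were higher with a median of 2.35, but in the core 3 of 9 were higher and 1 lower, with a median of -0.30. Lcn2 turned from 2.24 ± 0.34 in all members to -0.52 in the core. Of 23 cell cycle genes of G2 and M phase 10 were higher in all members and none lower. In the core 3 were higher and 5 lower, which is near the share over all genes there. Mki67 went from 0.45 ± 0.13 in all members to -0.17 in the core. Klf2 also turned, from 0.52 ± 0.14 to -0.09, and so did the cyclin Ccnd3, from 0.76 to -0.06, and the inhibitor Cdkn2d, from 0.76 to -0.24. Among the 10 largest increases named by the rule, Fcnb went from 5.14 ± 0.31 in all members to 2.80 in the core, and Gca, a calcium-binding protein of granulocytes, from 3.64 to 1.83. Dmkn went from 4.08 to 4.37 and Trem3, a myeloid surface receptor, from 3.38 to 2.49. Camp at 3.38 and Orm1 at 3.52 were not among the genes tested in the core. Of the 10 largest decreases, Gimap1, an immune GTPase, was at -3.77 and Car2, a carbonic anhydrase, at -3.85. Mt1, a metal-binding protein, was higher by 3.90 ± 0.14 in all members and by 4.10 in the core.

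Against neutrophil precursors, members had more RNA of growth genes and less of later granule and of G2 and M phase genes. Of 8124 genes tested 2696 were higher and 2640 lower (65.7% called in all, 33.2% higher and 32.5% lower). All 15 growth genes tested were higher, with a median of 2.17, and the core gave the same count, beside 2706 of all 7701 genes tested there. Myc, a driver of growth, was higher by 3.15, Npm1, a nucleolar protein, by 2.47 and Hspe1, a mitochondrial chaperonin, by 3.11. Cdk4, the partner kinase of Cdk6 in G1, was higher by 2.19 and cyclin Ccnd2 by 2.98, and these were the 2 higher of 8 genes of G1 control, of which 5 were lower and the median was -1.05. The lower ones were the cyclin Ccnd3 (-1.31), the inhibitors Cdkn2d (-1.70), Cdkn1b (-1.14) and Cdkn2c (-0.97), and Rb1 (-1.40), the retinoblastoma protein that holds cells in G1. Of 23 genes of G2 and M phase 21 were lower and none higher, and of 22 S phase genes 10 were higher and 4 lower. Of 7 primary granule genes 6 were higher, with Mpo at 5.93 ± 0.08 and Ctsg at 5.94 ± 0.09, and Serpinb1a, an elastase inhibitor, was lower at -0.99 ± 0.06. All 11 later granule genes tested were lower, among them Ltf at -3.01 ± 0.13. Cd34 was higher by 5.41 ± 0.27, and 10 of 12 monocyte genes were higher, with Irf8 at 2.47 ± 0.14. Cebpe was lower by 1.59 ± 0.06. The receptors split, with Csf1r, the receptor of monocyte growth factor, higher by 1.17 and Csf3r, that of granulocyte growth factor, lower by 0.76.

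The other genes with the largest increases over neutrophil precursors included enzymes of growing cells. Srm, which makes spermidine, was higher by 4.59 ± 0.17 and Phgdh, the first enzyme of serine synthesis, by 4.27 ± 0.14. Cst7, a cysteine protease inhibitor, was higher by 4.45 ± 0.14, and Mif, a cytokine, by 3.83 ± 0.17. The 10 largest decreases held Ly6g, the surface antigen of neutrophils, at -3.09 ± 0.07, Fpr2, a receptor for bacterial peptides, at -3.13 ± 0.10 and St3gal5, a sialyltransferase, at -3.83 ± 0.11. In the core these 3 were at -4.28, -3.97 and -5.34. Of the folding genes 11 of 14 were higher and 1 lower, with Calr, a chaperone, at 3.09 ± 0.08 and Pdia4 at 2.79 ± 0.16.

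Against monocyte progenitors, members had more RNA of primary granules and early progenitor genes and less of monocyte genes and interferon-induced genes. Of 8794 genes tested 2477 were higher and 2466 lower (56.2% in all, 28.2% higher and 28.0% lower). Of 7 primary granule genes 6 were higher (median 4.04) and Ctsc, the protease that activates the others, was lower at -2.07 ± 0.11. Kit was higher by 4.57 ± 0.27 and Myb by 3.06 ± 0.11. All 10 monocyte genes tested were lower, with Fn1 at -4.26 ± 0.11 and Ccr2, a chemokine receptor, at -2.87 ± 0.12, and 10 of 11 interferon genes were lower. Klf4, a monocyte factor, was lower by 2.20 ± 0.11 and Irf8 by 0.78 ± 0.07, while Gfi1, a repressor of the granulocyte line, was higher by 3.90 ± 0.24. All 15 growth genes were higher, with a median of 1.19, and 12 of 14 folding genes were higher. All 22 genes of G2 and M phase were lower, and this class was chosen to have Mki67, so that count is fixed in part by the choice. Of 22 S phase genes 18 were higher and none lower, with Mcm2, a subunit of the replicative helicase, at 1.27 ± 0.12. Nkg7, a protein of cytotoxic granules, was higher by 5.42 ± 0.09 and Cd63, a granule membrane protein, by 4.36 ± 0.16. S100a4 was at -3.59 ± 0.23, Clec4a3, a lectin receptor, at -3.51 ± 0.14 and Ifi204, an interferon-induced DNA sensor, at -3.23 ± 0.14. Cpa3, Prg2, Prss34 and Mcpt8, granule genes of mast cells, eosinophils and basophils, were higher by 5.35 to 6.55, and they were not among the genes tested in the core.

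**Figure D4:**
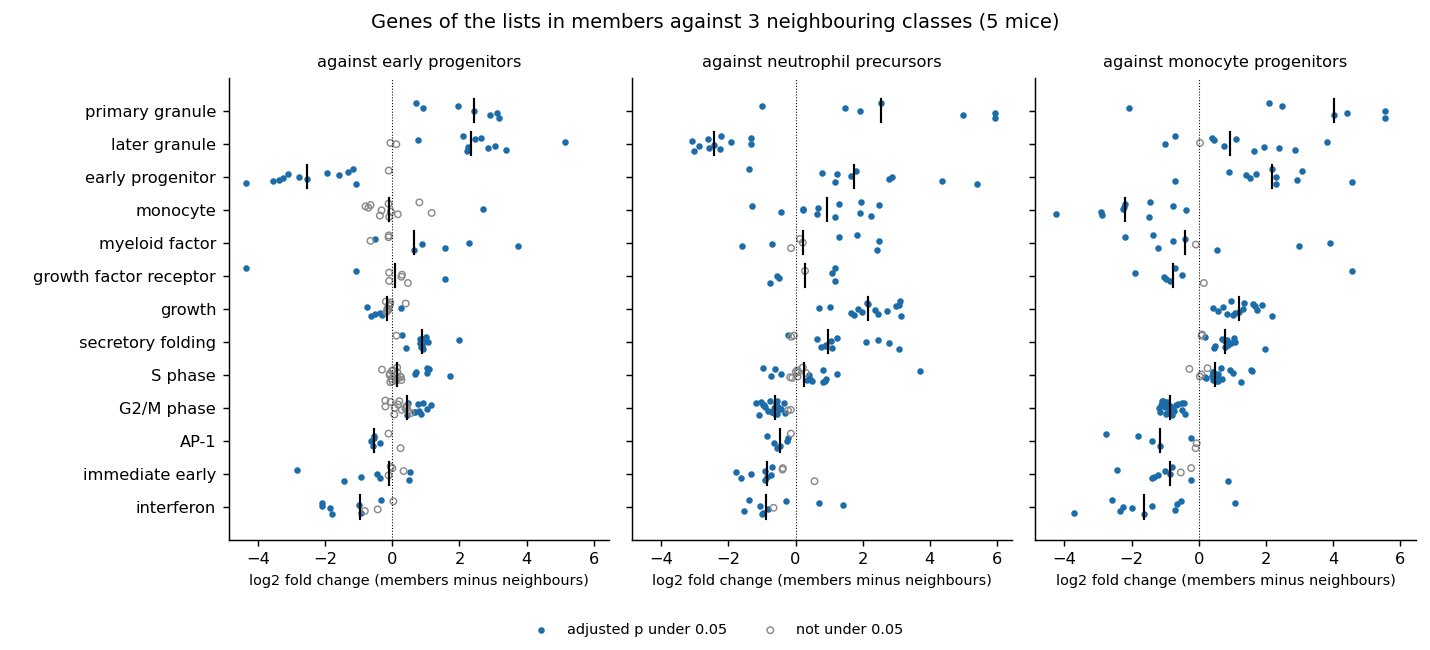
Log2 fold changes (horizontal axis, members minus neighbours) of the genes of 13 lists against 3 neighbouring classes. Each point is 1 gene, filled blue where the edgeR adjusted p was under 0.05, and black bars are list medians. Primary granule genes lie right of 0 against all 3 classes with few exceptions, and later granule genes lie right against early progenitors and left against neutrophil precursors.

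The 7 genes of the AP-1 transcription factor, among them Jun and Fos, belong to those that cells switch on within minutes of a stimulus or of dissociation. Of these, 5 were lower in members than in early progenitors, where 17.2% of all genes were lower. Against neutrophil precursors 6 were lower, beside 32.5% of all genes, and against monocyte progenitors 5, beside 28.0%. None was higher in any of the 3 comparisons. Without the mouse as a block these counts were 0, 1 and 4. Fos was lower by 1.39 ± 0.06 against monocyte progenitors. Both classes of a comparison came from the same cell suspension of each mouse, and whether they answer dissociation differently was not tested.

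Between days, each later mouse was set against the day 0 mouse, and the later mice were not compared with each other. Among genes with at least 50 summed counts over the members of both days, a log2 ratio of at least 1 in size was found for 4.38% of 6262 genes at day 3 (221 higher than day 0, or 3.53%, and 53 lower, or 0.846%), 5.1% of 6416 at day 6 (253 or 3.94% and 74 or 1.15%), 5.67% of 6860 at day 9 (316 or 4.61% and 73 or 1.06%) and 1.41% of 5970 at day 12 (39 or 0.653% and 45 or 0.754%). The median over all genes was 0.15, 0.16, 0.17 and 0.06, and after TMM scaling the counts were 117 and 95, 133 and 112, 171 and 121 and 29 and 56. In the core the counts were 124 higher and 48 lower at day 3 (3.67% of 4683 genes, 2.65% higher and 1.02% lower), 104 and 67 at day 6 (3.96% of 4320, 2.41% and 1.55%), 145 and 70 at day 9 (3.98% of 5398, 2.69% and 1.3%) and 35 and 40 at day 12 (1.57% of 4792, 0.73% and 0.835%). No replicate check exists for any of these values, and the comparisons share the day 0 mouse.

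In the core the summed level of the 7 AP-1 genes was 27.0, 14.3, 9.30, 11.2 and 21.8 UMIs per 10000 from day 0 to day 12. Of these genes 3, 5, 5 and 1 were at least 2-fold lower at days 3, 6, 9 and 12, and none was 2-fold higher, while 1.02%, 1.55%, 1.3% and 0.835% of all genes were 2-fold lower. Of the immediate early genes 2 of 11, 5 of 10, 5 of 10 and 0 of 10 were 2-fold lower, with medians of -0.57, -0.99, -1.01 and -0.48. Jun was at 7.54, 3.90, 1.54, 2.87 and 4.45 and Fos at 8.81, 4.24, 3.15, 3.12 and 8.78, so that for Fos day 12 was equal to day 0 within counting error (log2 ratio 0.00, interval -0.11 to 0.10). Klf2, a quiescence and flow-response factor, was at 3.27, 0.881, 0.660, 0.886 and 1.81, and Dusp1, a phosphatase of the MAP kinases, at 3.12, 1.10, 0.949, 0.995 and 2.56. Neat1, the long non-coding RNA of paraspeckles, was at 3.403, 1.45, 1.05, 1.09 and 4.08, with days 0 and 12 the highest. The chemokine Cxcl2 was at 1.28 at day 0 and at 0.0641, 0.0619, 0.0940 and 0.657 later.

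The day 0 mouse was also the highest in cells of other kinds. In the B cells the AP-1 genes summed to 35.2, 7.38, 17.3, 16.2 and 20.8 and in the neutrophil precursors to 20.4, 10.8, 10.2, 11.4 and 12.7. The lowest day was not the same, since it was day 3 in B cells and day 6 in the core and the neutrophil precursors. The immediate early genes summed to 19.1, 10.6, 8.43, 8.26 and 13.7 in the core and to 30.4, 8.34, 19.3, 16.03 and 18.4 in B cells. The 8 heat shock genes summed to 37.1, 41.8, 35.1, 35.4 and 37.6 in the core. Single genes of this list differed, with log2 ratios to day 0 of 2.29 for Hspa1a at day 3 (interval 1.504 to 3.16) and 1.16 at day 9, and of -0.97 for Dnajb1 at day 6 (interval -1.54 to -0.44). The part of freezing, digestion or transport in these values was not tested.

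**Figure D5:**
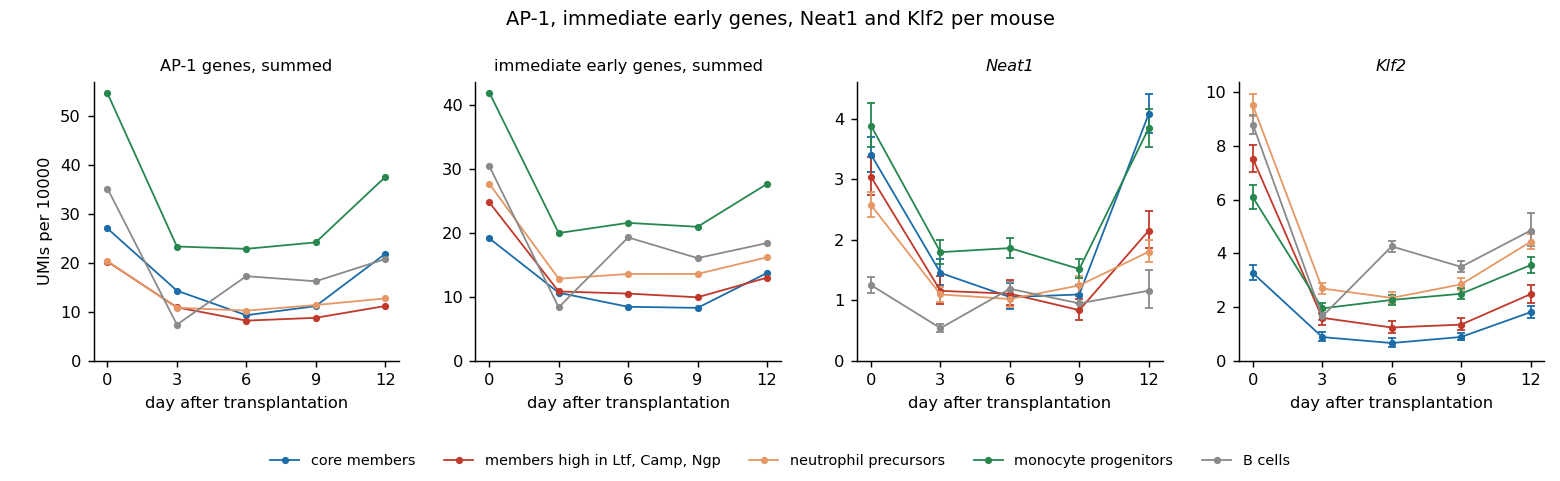
Summed level of 7 AP-1 genes and of 11 immediate early genes, and level of Neat1 and Klf2 with exact 95% Poisson intervals, in UMIs per 10000 (linear axes from 0) by day after transplantation in 5 classes of cells. The day 0 mouse is the highest of the 5 in every class for the AP-1 genes, the immediate early genes and Klf2.

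In the core 3 of 11 monocyte genes at day 3, 4 of 11 at day 6 and 3 of 12 at day 9 were at least 2-fold higher than at day 0, against 2.65%, 2.41% and 2.69% of all genes. F13a1 was at 1.001, 2.52, 2.65, 2.08 and 1.65 UMIs per 10000, giving log2 ratios of 1.33 (interval 1.05 to 1.61), 1.41, 1.06 and 0.72. Irf8 was at 1.38, 2.21, 1.77, 2.13 and 1.69, with ratios of 0.68, 0.37, 0.63 and 0.30. Ly6c2 was at 19.9, 26.8, 28.8, 22.7 and 17.99. Irf8 and Ly6c2 did not reach 2-fold on any day. Klf4 stood at -0.36 at day 3 (interval -0.82 to 0.08), 0.41 at day 6 and -0.49 at day 9 (interval -0.89 to -0.09). At day 12 no monocyte gene was 2-fold higher and 1 of 11 was 2-fold lower, which was Cd74, the invariant chain. Over all genes 0.73% were higher and 0.835% lower by that much. The share of thinned core members with an Irf8 UMI was 31.5%, 50%, 43.6%, 42.4% and 30.2%, against 3.57% to 10.4% in neutrophil precursors, while B cells, which express Irf8 themselves, had 25% to 51.1%. Saa3, an acute phase protein, was higher at day 3 with a ratio of 3.34 and Ifi27l2a, an interferon-induced gene, with 2.42.

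Among all members the largest ratios against day 0 were of genes of another lineage. Prss34 and Mcpt8, granule proteases of basophils and mast cells, and Prg2, the major basic protein of eosinophils, were at 6.23, 4.21 and 7.93 UMIs per 10000 at day 3 and at 0.00354, 0.0742 and 0.00707 at day 0. Prss34 rested on 1545 UMIs at day 3 and 1 at day 0, a log2 ratio of 10.8 with an interval of 8.30 to 16.1. The 7 marker genes of basophils, mast cells and eosinophils summed to 0.219, 19.9, 9.30, 8.52 and 0.189 over all members from day 0 to day 12 and to 0.294, 0.529, 0.186, 0.505 and 0.276 over the core. These markers reached at least 10 UMIs in 1, 8, 13, 16 and 0 members. Other classes were also lowest at days 0 and 12, at lower levels. The 7 markers summed to 0.00871, 1.44, 0.215, 0.174 and 0.0139 in neutrophil precursors. They summed to 0.0170, 0.216, 0.239, 0.170 and 0.00661 in monocyte progenitors and to 0.0150, 0.487, 0.368, 0.315 and 0.0798 in B cells. The part of free RNA in the ratios of the members was not tested. Igkc, an immunoglobulin light chain, was higher in the core as well, with ratios of 2.69 at day 6 and 1.98 at day 9. At day 12 all members were lower than at day 0 for Apoe (-2.18), Cd74 (-2.02) and Thbs1 (-1.56).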

How the data were processed

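Bone marrow of 5 mice, 1 per day, was measured by 10x Genomics droplet sequencing. The authors made the UMI counts with Cell Ranger on the mm10 genome and deposited them without normalization, for all droplets and not only those with a cell. Every barcode with at least 500 UMIs and at most 10% mitochondrial UMIs was kept here.

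Levels are UMIs per 10000 with exact 95% Poisson intervals. Class comparisons used edgeR 4.0.16 (R 4.3.3) with TMM, filterByExpr and Benjamini-Hochberg adjustment over all genes tested, with the mouse as a block because each animal gave both classes. DESeq2 (pydeseq2 0.5.4) was an alternative. Doublets were scored by Scrublet in scanpy 1.11.5, which called 8 members, with 2 at day 0, 6 at day 9 and 0 on the other days. It called few cells of any kind at days 3, 6 and 12, so 8 is not a count of the doublets among members. On simulated counts of the comparison with neutrophil precursors (7215 genes), 88.7% of 2-fold and 100% of 4-fold changes were recovered, with 2.73% false calls. Both simulated classes had the means of neutrophil precursors and the same dispersion for every gene. Only 97 genes were changed 2-fold and 92 were changed 4-fold, while 65.7% of genes were called in the data. The rates therefore hold for the simulated setting and are not the error rates of the real comparison. Early progenitors also had at most 1 UMI of Cd79a and Ebf1 and at most 1 of Siglech.

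For each class comparison the rule named the 10 largest increases and decreases with an adjusted p under 0.05, 1 sign in all mice and at least 50 CPM in the class where the gene was higher. For each day it named the 5 largest with at least 200 summed counts, and genes of the lists were added. Members and lists were chosen with earlier results of these data known. The labels name no culture or animal beyond 1 mouse per day, so p-values measure the spread over these 5 mice.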

Additional observations from a re-analysis of the deposited data

Results flagged for a closer look

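For 60 pairs of a named gene and a class comparison, the log2 difference between members and neighbours was taken in each mouse, and a mouse was picked out when its gap to the nearest other mouse was more than 0.71 of the whole range. Chance alone picks out about 1 in 20, and 5 were found. Myl10 against early progenitors was -1.38 in the day 3 mouse and -4.44 to -4.00 in the others. Myct1 against early progenitors was -2.40 in the day 6 mouse and -3.45 to -3.20 in the others. Dmkn against neutrophil precursors was 6.80 in the day 12 mouse and 3.45 to 4.39 in the others. Srm, which makes spermidine, was 3.41 against neutrophil precursors in the day 3 mouse and 4.60 to 4.95 in the others. Clec4a1 against monocyte progenitors was -2.31 in the day 6 mouse and -3.65 to -3.28 in the others. All 5 kept 1 sign in every mouse, which the rule for naming genes required.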

How the results depend on the processing

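The share of members moved with the rule. With at least 3 UMIs of Elane and Ms4a3 it was 3.10%, 3.37%, 3.08% and 4.02% at days 0, 3, 6 and 9, with at least 10 it was 2.17%, 2.16%, 2.003%, 2.72% and 2.23% at days 0 to 12, with at least 2 of Cdk6 1.33%, 1.64%, 1.32%, 2.002% and 1.47%, and in the core 1.49%, 1.27%, 0.910%, 1.70% and 1.55%. Thinning to 5000 UMIs left fewer genes to test and gave 663 higher and 681 lower against early progenitors, 1525 and 1511 against neutrophil precursors and 1485 and 1468 against monocyte progenitors. DESeq2 gave 888 lower against early progenitors. Leaving out each mouse in turn gave 1112 to 1231 higher and 1110 to 1248 lower against early progenitors, 2489 to 2665 and 2469 to 2583 against neutrophil precursors, and 2190 to 2360 and 2246 to 2393 against monocyte progenitors. With no replicate block for the mouse the counts were 1092 and 1141, 2416 and 2265, and 2110 and 2124. Between days no paired analysis was possible because each day has 1 mouse. For days 3, 6 and 9, TMM gave 117, 133 and 171 genes higher and 95, 112 and 121 lower. Thinning gave 56, 84, 128 and 10 higher at days 3, 6, 9 and 12, and 43, 41 and 24 lower at days 6, 9 and 12. A minimum of 200 counts gave 30, 34, 32 and 0 higher and 17, 26, 28 and 7 lower, and one of 10 counts gave 850, 935, 1040 and 351 higher and 218, 256, 236 and 332 lower. The core gave 124, 104 and 145 higher at days 3, 6 and 9, and without the highest 5% of doublet scores 120, 106 and 137. In the core 7 named differences turned in sign, which were Lcn2 (-0.52), Mki67 (-0.17), Klf2 (-0.09), Cdkn2d (-0.24) and Ccnd3 (-0.06) against early progenitors and Lcn2 (-0.79) and Malat1 (-0.11) against monocyte progenitors. The core was chosen for low Ltf, Camp and Ngp, which fixes in part the change of genes that run with them. Beyond that, the cause of these changes of sign was not tested. The core and the doublet limit were chosen after seeing the data. Scrublet called 2.84%, 0.164%, 0.281%, 3.17% and 0.180% of cells. Why the rates at days 3, 6 and 12 were so much lower was not tested. Its calls in those libraries cannot be taken as a count of doublets. With 55 to 118 core members a mouse, genes under 50 summed counts were not compared between days.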
